A study of Mus musculus with 2 samples.

Results

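The 48 genes described here are the tumour necrosis factor (TNF) superfamily ligands, their receptors and the TRAF adaptors that a table of Malat1 knockout Th17 cells lists, out of 16385 genes in all. They were chosen by symbol alone: names that start with Tnfsf or Tnfrsf, Traf1 to Traf6, and Tnf, Lta, Ltb, Ltbr, Cd27, Cd40, Cd40lg, Cd70, Eda2r, Fas and Fasl. Of the 48, 18 are ligands, 24 are receptors and 6 are TRAFs. The study asked how the transcriptome of helper T cells differs without Malat1, an abundant nuclear long non-coding RNA.

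Ribosome-depleted total RNA was sequenced from C57BL/6 mouse naive CD4+ T cells cultured for 72 h toward the Th17 fate with TGF-β (0.1 ng/mL), IL-6 (20 ng/mL), anti-CD3ε (0.25 µg/mL) and anti-CD28 (1 µg/mL). The 1 group at hand holds 2 libraries of Malat1 knockout cells, which the submitters describe as independent biological replicates. How the knockout was made is not given in the sources used here, and for replicate 2 a label reads Malat2 although the title reads Malat1. Transcript levels of Malat1 are not analysed here, and the genotype rests on the titles. The wild-type libraries belong to another series and were not used, so a difference in genotype and a difference in series cannot be told apart wherever knockout is compared with wild type.

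The ligands of this superfamily are mostly membrane-bound or shed trimers that cluster their receptors on neighbouring cells. One class of receptors carries a death domain that recruits FADD or TRADD, and another binds TRAF proteins, which lead to NF-κB and JNK signalling. On activated T cells, OX40, 4-1BB and GITR are costimulatory receptors, and CD40 ligand, lymphotoxin and RANKL are signals that T cells give to other cells.

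The knockout libraries held 21554852 counts (replicate 1) and 26916169 counts (replicate 2). The 48 genes took 0.503% of them in replicate 1 (95% Wilson interval 0.500 to 0.506) and 0.472% in replicate 2 (0.470 to 0.475), intervals that cover counting error only. The libraries carried T cell and Th17 markers, with summed normalized counts of 49766 and 45044 for 6 T cell markers and of 111770 and 109598 for 7 Th17 markers. Normalized counts are the authors' read counts divided by a size factor per library. Lists for other cells summed to 26.1 and 22.0 (9 epithelial and kidney tubule markers), 205 and 228 (10 stromal and smooth muscle), 88.0 and 97.2 (4 dendritic cell), 198 and 155 (7 myeloid) and 280 and 288 (2 CD8 T cell). Higher sums came mostly from 1 gene each: Ebf1 (1091 and 1183) of 1102 and 1190 for B cells, Nkg7 (681 and 650) of 843 and 784 for NK cells, and Pecam1 (726 and 654) of 728 and 657 for endothelium. The mean of the wild-type libraries implied by the authors' deposited mean was 19101 for the epithelial list, 15504 for the stromal list and 2202 for the endothelial list, and between 96.6 and 1131 for the other 5 lists. In the authors' deposited table all 19 epithelial and stromal markers had a negative log2 fold change, against 55.9% of all genes, and 1 of them, Actg2, passed an adjusted p of 0.05 (DESeq2).

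A total of 36 members had a mean normalized count of 50 or more in knockout, 19 had 1000 or more and 4 had 10000 or more. Those 4 were Tnfrsf9, Tnfrsf4, Traf1 and Tnfrsf18, and they took 58.0% of all counts of the family in replicate 1 and 54.9% in replicate 2. At the low end, 12 members lay under 50, of which 6 had a mean under 10. Every member had at least 1 count in 1 of the libraries.

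**Figure D1:**
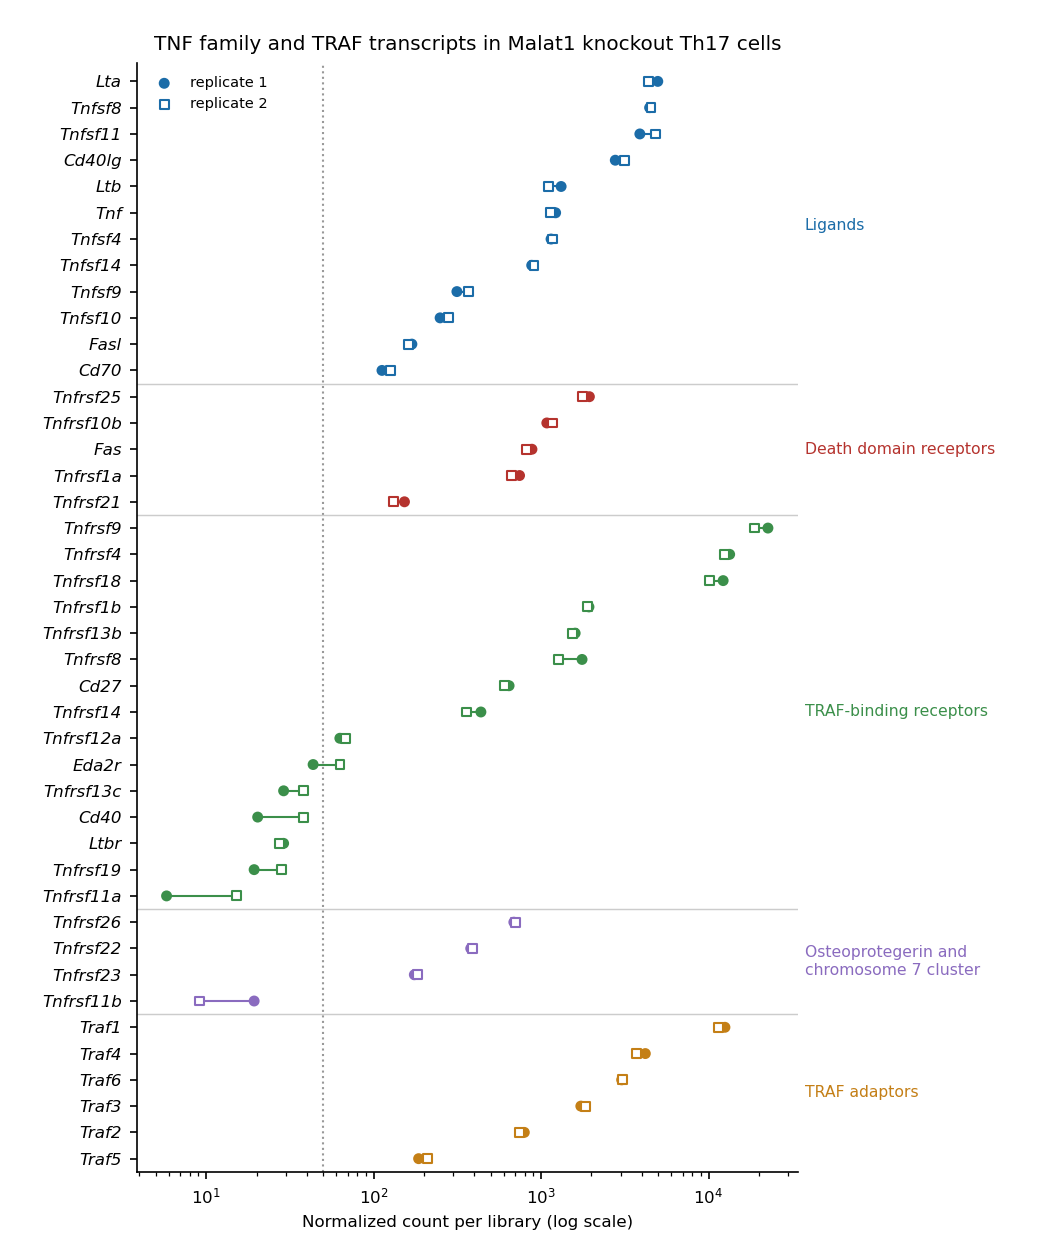
Normalized count of each member in each knockout library on a log axis, grouped by role, with filled circles for replicate 1 and open squares for replicate 2 and a dotted line at 50. Tnfrsf9, Tnfrsf4, Tnfrsf18 and Traf1 lie above 10000 in both libraries, and the 6 members with a mean under 10 are not drawn.

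Among receptors that bind TRAFs, Tnfrsf9, which encodes the costimulatory receptor 4-1BB, had the highest count, with 22634 in replicate 1 and 18774 in replicate 2. It ranked 92 among all genes by the knockout mean. Tnfrsf4, encoding OX40, stood at 13372 and 12421, and Tnfrsf18, encoding GITR, at 12227 and 10188. The lower library of Tnfrsf9 lay above both libraries of Tnfrsf4, while the ranges of Tnfrsf4 and Tnfrsf18 did not overlap either.

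Per length the order changed. Divided by the exon length of GENCODE M21 (all annotated exons of a gene merged), Tnfrsf4 came first with 9448 ± 493 normalized counts per kb (SD, n = 2). Tnfrsf9 followed with 7606 ± 1003 and Tnfrsf18 with 7354 ± 946 (SD, n = 2 for each). The per-kb values of the last pair were 8315 and 6897 for Tnfrsf9 and 8023 and 6685 for Tnfrsf18. Their ranges overlapped across libraries, while within a library Tnfrsf9 exceeded Tnfrsf18 1.036-fold and 1.032-fold. Annotated exons of another gene, Gm16008, cover 27.2% of the exon length of Tnfrsf18 on the opposite strand, and without a stated strand setting reads from both cannot be told apart.

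A second tier of TRAF-binding receptors lay above 1000. Tnfrsf1b, the TNF receptor common on T cells, had normalized counts of 1932 and 1898, which nearly coincide. Tnfrsf8, encoding CD30, had 1757 and 1271, a gap of 0.47 on the log2 scale and the widest downward step from replicate 1 to replicate 2 among members with a mean of 50 or more. Tnfrsf13b, encoding TACI, a receptor for BAFF and APRIL best known from B cells, had 1598 and 1535.

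Tnfrsf13b stood at that level while 5 B cell transcripts were close to 0 in the same libraries. Ms4a1 had 2 and 0 counts, Pax5 1 and 0, Cd22 2 and 0, Cd79a 3 and 6, and Cd79b 3 and 2. Ebf1, a transcription factor also used as a B cell marker, had 1128 and 1558 counts. Tnfrsf13c, the BAFF receptor, had normalized counts of 29.0 and 37.9.

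Cd27, a costimulatory receptor of naive and memory T cells, had normalized counts of 644 and 606. Tnfrsf14, encoding HVEM, had 437 and 359, with replicate 1 the higher. The rest of this class was low: Tnfrsf12a (Fn14) had 62.9 and 68.3, and Eda2r, an ectodysplasin receptor encoded on the X chromosome, 43.5 and 63.0. Cd40, Ltbr, Tnfrsf19 and Tnfrsf11a, whose proteins are mostly found on B cells, antigen-presenting cells, stroma or osteoclasts, had normalized counts of 20.3 and 37.9, 29.0 and 27.3, 19.3 and 28.1, and 5.80 and 15.2. The mean of Tnfrsf11a, 10.5, thus rests on libraries that differ widely.

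All 5 receptors with a death domain were above 50. Tnfrsf25, encoding death receptor 3, led with 1943 and 1768, followed by the TRAIL receptor Tnfrsf10b with 1082 and 1170. Fas, the receptor that carries the death signal of Fas ligand, had 882 and 823, and Tnfrsf1a, the main death domain receptor for TNF, had 744 and 669. Tnfrsf21, encoding death receptor 6, was the lowest with 153 and 131. Per kb, Tnfrsf25 had 815 ± 54.6 and Tnfrsf1a 273 ± 20.3 (SD, n = 2), so Tnfrsf1a lay below Tnfrsf1b, at 502 ± 6.23 (SD, n = 2).

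Receptors of the chromosome 7 cluster varied little between the libraries. Tnfrsf26 had 688 and 707, and Tnfrsf22 and Tnfrsf23, which encode decoy receptors for TRAIL, had 380 and 388, and 175 and 182. Tnfrsf22 and Tnfrsf23 share 719 stretches of 50 bases, 17.3% of those in the transcripts of Tnfrsf22, so reads from the shared parts are uncertain between them. Tnfrsf11b, the soluble decoy osteoprotegerin that binds RANKL, had 19.3 and 9.11.

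Among ligands, Lta, encoding lymphotoxin α, was the most abundant with normalized counts of 4977 and 4396. Tnfsf8, encoding CD30 ligand, had 4448 and 4531, Tnfsf11, encoding RANKL, 3890 and 4804, and Cd40lg, encoding CD40 ligand, 2775 and 3135. Lta was the highest of these in replicate 1, whereas in replicate 2 both Tnfsf8 and Tnfsf11 exceeded it. Per kb, Lta had 3389 ± 297, Cd40lg 2364 ± 203, Tnfsf11 1944 ± 289 and Tnfsf8 1179 ± 15.5 (SD, n = 2 for each). The per-kb ranges of these 4 did not overlap: the lower library of Cd40lg was at 2220 and the higher one of Tnfsf11 at 2148.

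Ltb, Tnf and Tnfsf4 lay close together. Ltb, encoding lymphotoxin β, had 1318 and 1107, Tnf 1222 and 1133, and Tnfsf4, encoding OX40 ligand, 1147 and 1172. The ranges of all 3 overlapped, and their order differed between the libraries. Tnfsf14, encoding LIGHT, had 879 and 908, Tnfsf9, encoding 4-1BB ligand, 314 and 369, and Tnfsf10, encoding TRAIL, 250 and 282. Fasl, encoding the ligand of Fas, had 169 and 162, and Cd70, encoding the ligand of CD27, 112 and 127.

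A further 6 ligands were at or near the detection floor. A count of 0 allows up to 2.90 normalized counts in replicate 1 and 2.28 in replicate 2 (3 counts each, counting error only). Tnfsf18, encoding GITR ligand, and Tnfsf13, encoding APRIL, each had 0 counts in replicate 1 and 1 in replicate 2. The read-through unit Tnfsfm13 had 1 and 0, Tnfsf12 (TWEAK) 3 and 2, Tnfsf13b (BAFF) 2 and 5, and Tnfsf15 (TL1A) 4 and 3. Tnfsf12, Tnfsf13 and Tnfsfm13 share exons, which makes their split uncertain.

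Set against each other, 20 known ligand and receptor pairs covered every combination of levels. In 11 pairs both genes had a mean of 50 or more, in 4 only the receptor did, in 4 only the ligand did, and in 1 neither did. The 4 with the receptor alone were Tnfrsf18, Tnfrsf25, Tnfrsf13b and Tnfrsf12a, set against Tnfsf18, Tnfsf15, Tnfsf13b and Tnfsf12. Those with the ligand alone were Cd40lg without Cd40, Tnfsf11 without Tnfrsf11a, and Ltb and Tnfsf14 without Ltbr, which encodes the lymphotoxin β receptor.

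Among the 11 pairs with both genes at 50 or more, the balance ranged from near-even to strongly unequal. Per kb, Tnfrsf9 exceeded Tnfsf9 34.1-fold in replicate 1 and 24.1-fold in replicate 2, and Tnfrsf4 exceeded Tnfsf4 15.7-fold and 14.3-fold. Fas exceeded Fasl 4.90-fold and 4.78-fold. The other way round, Lta exceeded Tnfrsf1a 12.5-fold and 12.3-fold, and Tnfsf8 exceeded Tnfrsf8 2.30-fold and 3.24-fold. Nearest to even were Tnf over Tnfrsf1b (1.47-fold and 1.39-fold), Tnfsf14 over Tnfrsf14 (1.57-fold and 1.97-fold) and Cd27 over Cd70 (2.08-fold and 1.73-fold). Outside these 11, Cd40lg exceeded Cd40 372-fold and 225-fold per kb, on 21 and 50 counts of Cd40. These ratios compare transcripts and depend on the annotated exon lengths. Annotated exons of Gm11110 cover 14.9% of the exon length of Tnfsf9 on the opposite strand, so the limit given for Tnfrsf18 holds for Tnfsf9 as well.

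**Figure D2:**
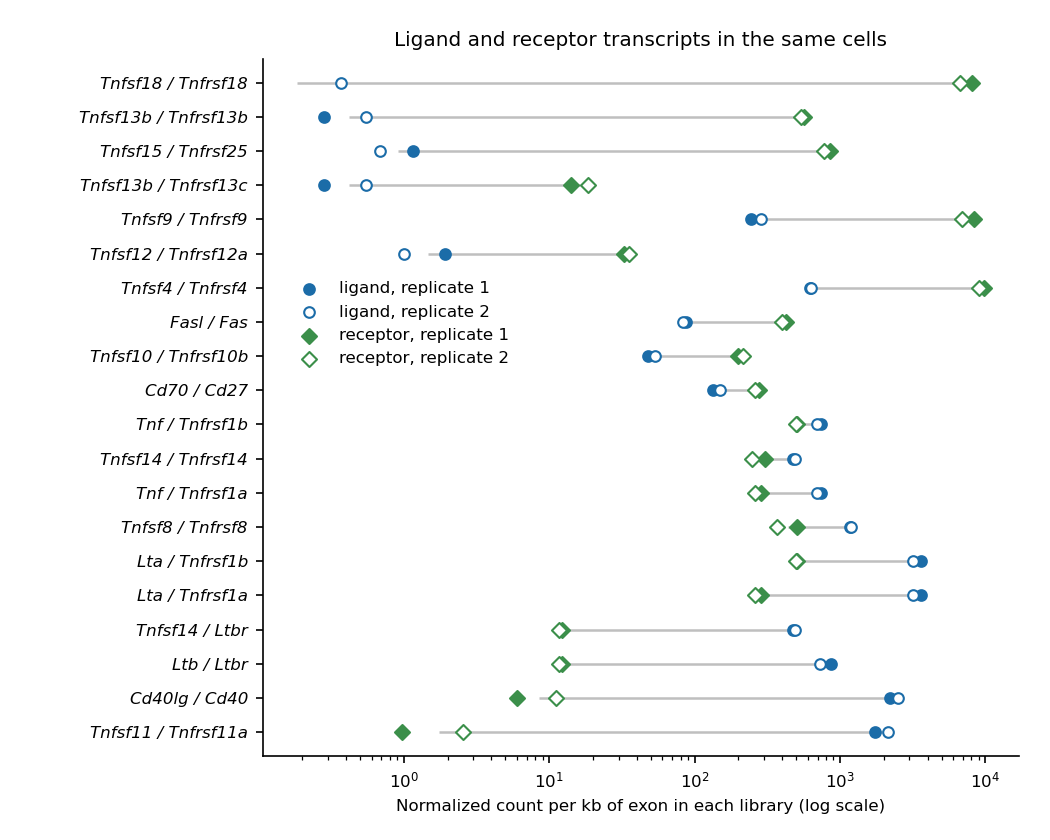
Normalized count per kb of exon of the ligand (circles) and receptor (diamonds) of 20 pairs on a log axis, filled for replicate 1 and open for replicate 2, with a line joining the means. Pairs run from receptor-rich at the top (Tnfsf18 / Tnfrsf18) to ligand-rich at the bottom (Tnfsf11 / Tnfrsf11a), and the library with 0 counts of Tnfsf18 has no point.

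All 6 TRAF genes were expressed. Traf1, an adaptor that works together with TRAF2 and is itself induced by NF-κB, had normalized counts of 12530 and 11534. Traf4 had 4194 and 3733, and Traf6, which also serves the IL-1 and Toll-like receptors, 3029 and 3061. Traf3, a brake on the non-canonical NF-κB pathway, had 1728 and 1847, Traf2 had 794 and 745, and Traf5 had 186 and 211. Per kb, Traf1 (1364 ± 79.9) and Traf4 (1204 ± 98.8) led and did not overlap, and Traf6 (386 ± 2.88), Traf3 (243 ± 11.5), Traf2 (151 ± 6.78) and Traf5 (43.4 ± 3.91) followed in the same order as by count (SD, n = 2 for each).

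Many members lie side by side in the genome (GRCm38, GENCODE M21), some with similar and some with different normalized counts. Chromosome 4 holds 9 of the 48, among them Tnfrsf4 (156013843 to 156016612) and Tnfrsf18 (156026164 to 156028895), which are 9.55 kb apart on the same strand and both above 10000. Tnfsf8 and Tnfsf15, also on chromosome 4, are 86.2 kb apart, with means of 4490 and 3.07. On chromosome 17, Ltb (35194439 to 35196320), Tnf (35199381 to 35202007) and Lta lie within gaps of 3.06 kb and 1.16 kb, and their means were 1212, 1177 and 4687. Tnfsf4 and Tnfsf18 on chromosome 1 are 76.2 kb apart, with means of 1160 and 0.379.

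Because the family signals through NF-κB, the RefSeq promoter windows of its members (250 bases before to 50 after a transcript start, GRCm38.p6) were searched on both strands for the κB motif. Windows existed for 38 of the 48 genes, 42 in all, and 4 held the motif (9.52%), against 4.51% of 32851 windows of all genes. The stretches with a match are given in the direction of the gene, with the matched bases in capitals. They come from the only family windows with a match. For Tnfrsf8 and Ltb the match was on the strand opposite to the gene, so their capitals are its reverse complement.
Tnfrsf8, chr4:145315303-145315352, minus strand: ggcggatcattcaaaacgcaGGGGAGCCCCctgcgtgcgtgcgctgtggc
Tnfrsf9, chr4:150927947-150927975, plus strand: agagcagctGGGGATTTCCCaggaggccc
Traf3, chr12:111166340-111166369, plus strand: cgcgcgcccaggcggcccgcGGGGATTTCC
Ltb, chr17:35194400-35194449, plus strand: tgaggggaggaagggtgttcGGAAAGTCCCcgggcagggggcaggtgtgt
In Tnfrsf9 overlapping matches on both strands span 11 bases, before the second of its 2 RefSeq starts, which lies 13437 bases inside the gene in GENCODE M21. All 29 bases shown for Tnfrsf9 lie in annotated exons of GENCODE M21. The same holds for 11 of the bases shown for Ltb, whose RefSeq start lies 68 bases inside the gene. A match describes these letters and is no evidence of binding.

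The replicates differed in the family about as much as in other genes. Among the 36 members at 50 or above, the log2 ratio of replicate 2 to replicate 1 had a median size of 0.12, against 0.10 over 10540 genes of that level. The members ranged from -0.47 (Tnfrsf8) to 0.52 (Eda2r). Only 3 of the 36 (8.33%) lay beyond 0.3, against 9.59% of all genes, the third being Tnfsf11 at 0.30. The abundant receptors Tnfrsf9 (-0.27) and Tnfrsf18 (-0.26) were lower in replicate 2, as was Tnfrsf14 (-0.28).

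Set against wild type, none of the 48 members passed an adjusted p of 0.05 by the DESeq2 Wald test with Benjamini-Hochberg adjustment in the authors' deposited table: 0 were higher, 0 were lower, 45 did not pass and 3 had no adjusted p. Over all genes with an adjusted p, 0.159% passed, with 0.00691% higher and 0.152% lower, so few calls were made anywhere. The adjusted p of every member that had one was 0.999988. The name of the authors' table speaks of several factors, which are not given, so their fit may hold more than genotype. In bulk RNA, fewer cells of a type and less RNA per cell cannot be told apart.

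At an unadjusted p under 0.05, the authors' deposited table had 2 members higher and 0 lower in knockout, against 0.391% of all genes higher and 1.72% lower. They were Tnfrsf9 and Traf1. For Tnfrsf9 the log2 fold change of knockout against wild type in the authors' deposited table was 0.23 (SE 0.097, 95% interval 0.044 to 0.42), with an unadjusted p of 0.0159 (the authors' DESeq2). Its knockout libraries, at 22634 and 18774, were both above the implied wild-type mean of 17531. They differed from each other by 0.27 on the log2 scale, more than the fold change. With the factors of the authors' fit not given, this gap need not be the error that the fit used.

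For Traf1, the same authors' deposited table gives a log2 fold change of 0.18 (SE 0.087, 95% interval 0.014 to 0.35) and an unadjusted p of 0.0344 (the authors' DESeq2). Both knockout libraries, at 12530 and 11534, lay above the implied wild-type mean of 10590. Neither gene passed after adjustment.

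In the ligands, the largest positive value was that of Lta, with a log2 fold change of 0.34 (SE 0.20, 95% interval -0.048 to 0.73) and an unadjusted p of 0.0859 (DESeq2, the authors' deposited table). Its neighbours Ltb, at 0.23 (SE 0.30), and Tnf, at 0.096 (SE 0.23), had intervals that included 0 in the authors' deposited table. The lowest ligands with a mean of 50 or more were Tnfsf11, at -0.15 (SE 0.21), and Tnfsf10, at -0.14 (SE 0.44), in the authors' deposited table. Cd40lg (-0.0069, SE 0.19) and Tnfsf8 (-0.0035, SE 0.22) were nearest to 0 in the authors' deposited table.

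In the TRAF-binding receptors, Tnfrsf14 had the highest log2 fold change of the family at a mean of 50 or more, 0.39 (SE 0.39), in the authors' deposited table. More abundant receptors were estimated more tightly: Tnfrsf1b stood at 0.25 (SE 0.18), Tnfrsf18 at 0.13 (SE 0.087) and Tnfrsf4 at 0.056 (SE 0.10) in the authors' deposited table. For Tnfrsf4 the 95% interval ran from -0.15 to 0.26 and that of Tnfrsf18 from -0.043 to 0.30, so both exclude a change by 1.5-fold in either direction. Tnfrsf13b (0.068, SE 0.21), Cd27 (0.079, SE 0.30) and Tnfrsf8 (-0.069, SE 0.19) had intervals on both sides of 0 in the authors' deposited table.

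For the death domain receptors, log2 fold changes in the authors' deposited table were 0.18 (SE 0.21) for Tnfrsf25, 0.15 (SE 0.29) for Tnfrsf1a, 0.012 (SE 0.28) for Tnfrsf10b and -0.018 (SE 0.26) for Fas. Tnfrsf21 was the lowest member with a mean of 50 or more, at -0.65 (SE 0.72, 95% interval -2.07 to 0.77). In the chromosome 7 cluster, Tnfrsf26, Tnfrsf22 and Tnfrsf23 stood at 0.28 (SE 0.30), 0.23 (SE 0.39) and 0.16 (SE 0.55) in the authors' deposited table.

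Tnfrsf21 and Ltbr were the members with the largest negative values among those with a knockout mean over 20. Ltbr, at -1.06 (SE 1.12, 95% interval -3.25 to 1.13) in the authors' deposited table, had 29.0 and 27.3 normalized counts in knockout and an implied wild-type mean of 69.3. For Tnfrsf21 the implied wild-type mean was 257, against 153 and 131 in knockout. Both genes are also expressed by stromal and epithelial cells, whose summed marker levels, given above, were far lower in knockout than in the implied wild-type mean. That mean does not show whether each wild-type library carried these markers. Their deposited log2 fold changes had wide standard errors for Col1a2 (-7.24, SE 4.68) and Kap (-5.28, SE 4.23), and a narrower one for Actg2 (-6.97, SE 1.47). Of the 19 markers, Col1a2, Krt8, Lrp2, Umod and Miox had 0 counts in both knockout libraries. Another 4 had a mean over 20 normalized counts in knockout, namely Dcn (61.9 and 48.6, with an implied wild-type mean of 55.9), Fbln1 (65.8 and 104.7), Col1a1 (47.4 and 35.7) and Pdgfrb (28.1 and 31.1). The part of this difference in the values of Tnfrsf21 and Ltbr was not tested, and both their intervals include 0. Other low receptors had either sign. Tnfrsf19 stood at 0.57 (SE 1.51), Tnfrsf11b at 0.68 (SE 1.83) and Tnfrsf12a at 0.12 (SE 0.87) in the authors' deposited table. Below 0 were Cd40 (-0.23, SE 1.34), Tnfrsf11a (-0.25, SE 1.78), Eda2r (-0.10, SE 0.97) and Tnfrsf13c (-0.093, SE 1.14). None of the 48 members was itself near-absent, defined as a knockout mean under 2% of an implied wild-type mean of at least 100, where 235 of all genes were.

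For the remaining TRAFs, the authors' deposited table puts Traf3 at 0.22 (SE 0.19), Traf4 at 0.12 (SE 0.13), Traf6 at 0.036 (SE 0.17), Traf2 at 0.033 (SE 0.28) and Traf5 at 0.019 (SE 0.53). All 6 TRAF values were above 0, against 49.1% of all genes with a mean of 50 or more. The intervals of the TRAFs other than Traf1 included 0. For Traf2, Traf5 and Traf6 the standard error was far larger than the value itself.

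**Figure D3:**
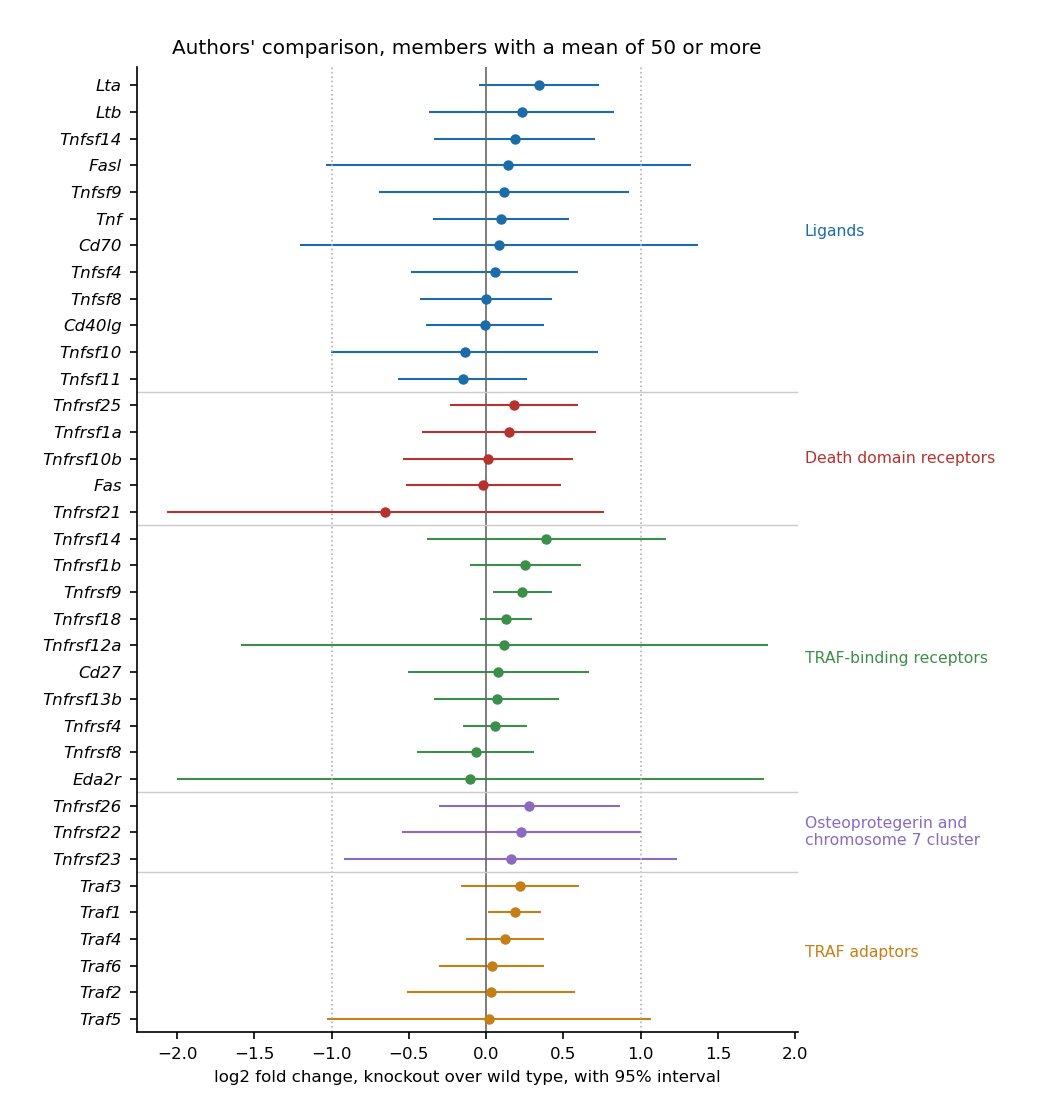
The authors' log2 fold change of knockout against wild type for the 36 members with a mean of 50 or more, by role, with 95% intervals from the authors' standard errors and dotted lines at 2-fold either way. The intervals of Tnfrsf9 and Traf1 leave out 0, and those of Tnfrsf21, Eda2r and Tnfrsf12a are the widest.

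Across the family, 30 of 48 log2 fold changes were above 0 in the authors' deposited table, with a median of 0.062, against 44.1% and a median of -0.031 over all genes. Among the 36 members with a mean of 50 or more, 28 were above 0 with a median of 0.11, against 49.1% and -0.0032 over 10978 genes. The 6 T cell markers and the 7 Th17 markers, too, were all above 0, from 0.0028 (Il22) to 0.402 (Il17f). Il17f was the only gene called higher in knockout at the 0.05 threshold (DESeq2, adjusted p 0.00124, the authors' deposited table). The stromal and epithelial lists had negative values. The part of these marker differences in the family's values was not tested. The fold change was smaller in size than the gap between the knockout replicates in 21 of these 36 members (58.3%), against 51.1% of all genes of that level.

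The standard errors give the range of changes each gene allows. In 26 of the 36 members (72.2%) the 95% interval lay within a 2-fold change in either direction, against 73.9% of all genes of that level, and in 15 (41.7%) within 1.5-fold, against 41.9%. The intervals of the other 10, Tnfsf10, Fasl, Cd70, Tnfrsf21, Tnfrsf14, Tnfrsf12a, Eda2r, Tnfrsf22, Tnfrsf23 and Traf5, reached a 2-fold change. These intervals are not adjusted for the number of genes tested. The authors' Wald statistics had an SD of 0.714 over all genes and 0.714 over the 48 members, less than a standard normal has. Such standard errors are wide for the spread of the estimates, which bears on the intervals and on the calls.

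**Figure D4:**
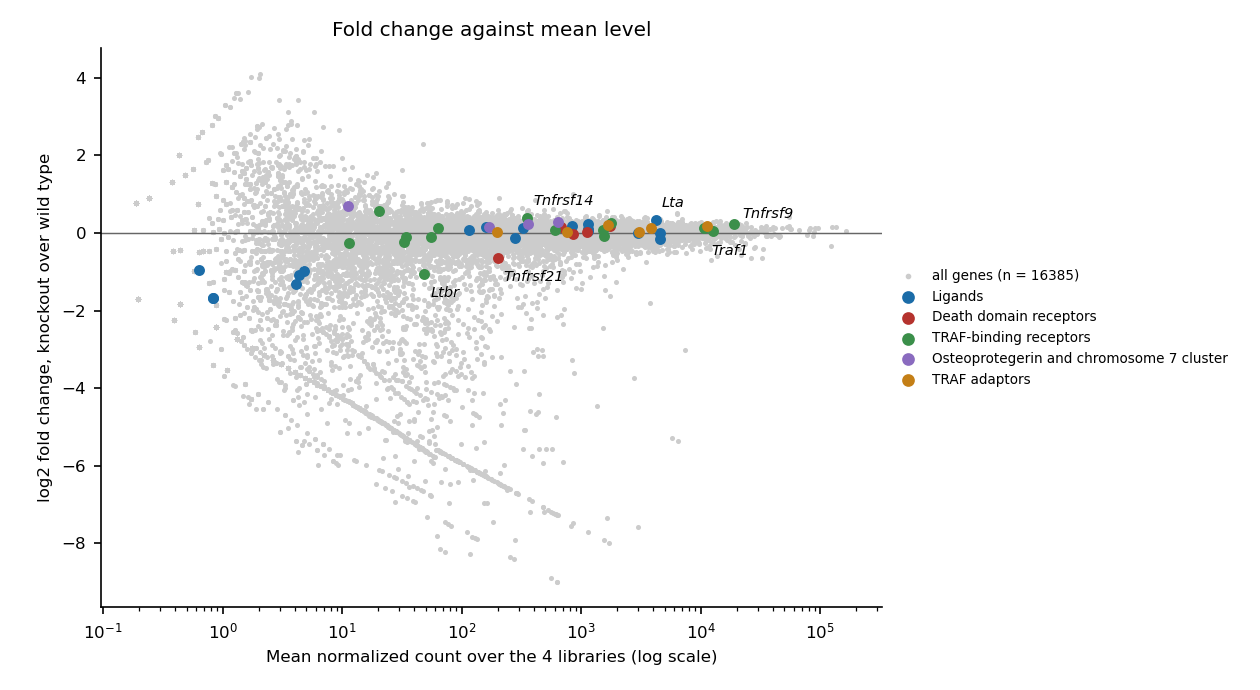
Log2 fold change of the authors' comparison against the mean normalized count over the 4 libraries of their fit (log axis), with all 16385 genes in grey and the 48 members coloured by role. At means above 1000 the members lie within the band of other genes, and the lowest member value, -1.68, belongs to Tnfsf18 and Tnfsf13 with 1 count each in knockout.

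Downstream of the receptors, a list of 67 genes of NF-κB signalling, TRAF partners and death signalling gave the same count. Of 65 in the table, 0 were higher, 0 lower and 65 did not pass by DESeq2 in the authors' deposited table, where 0.159% of all genes passed. At an unadjusted p under 0.05, 1 was higher and 1 lower, against 0.391% and 1.72% of all genes. The median log2 fold change was 0.056, against -0.031 over all genes. Above 0 were 40 of the 65, against 44.1% of all genes. At a mean of 50 or more, 39 of 61 were above 0, against 49.1%. Nfkb1 and Nfkb2, which encode the precursors of NF-κB p50 and p52, had normalized counts of 16195 and 17271, and 8815 and 9967, and they were named after their values were seen.

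Adam10, a sheddase that cleaves several membrane proteins, had the smallest p of that list. Its log2 fold change in the authors' deposited table was -0.54 (SE 0.20, 95% interval -0.93 to -0.16), with an unadjusted p of 0.00570 and an adjusted p of 0.840 (the authors' DESeq2). Birc2, encoding the ubiquitin ligase cIAP1 that TRAF2 recruits, stood at 0.45 (SE 0.21) with an unadjusted p of 0.0348 in the authors' deposited table. The next by p on the positive side were Tnip1 (0.16, SE 0.11), Daxx (0.25, SE 0.19) and Trafd1 (0.25, SE 0.19) in the authors' deposited table. On the negative side, Tank (-0.23, SE 0.20), Tifa (-2.37, SE 2.22) and Chuk (-0.16, SE 0.17) followed in the authors' deposited table, Tifa on 1 and 7 counts in knockout.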

How the data were processed

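One deposited table was used. It gives the authors' raw read counts per gene and library. It also gives the authors' normalized signal, which is each count over 1 size factor for the library. The authors' log2 fold changes with standard errors, Wald score, p-values and adjusted p are in the same deposited table. STAR 2.6.1a, featureCounts, DESeq2 1.18.1 and mm10 are named per the submitters' processing notes. The sources used here do not give annotation, strand setting or model factors. The name of the deposited table calls the fit multifactor, so the authors' values may come from a model with factors besides genotype. Another 4 columns, of wild-type libraries that match no sample here, were not used, so no new test between genotypes was run. The implied wild-type mean is what the authors' mean over 4 libraries leaves after both knockout values. The log2 ratio computed from it differed from the deposited fold change by a median of 0.00297 in members with a knockout mean of 50 or more. Single genes, and the markers above all, can differ far more. Kap had 0.967 and 2.28 in knockout and an implied wild-type mean of 11576. Its deposited log2 fold change, -5.28 (SE 4.23), was much smaller in size than these levels give.

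Samples were grouped by title. The knockout libraries differed beyond sampling noise (chi-square of 11.1 per degree of freedom over 12684 genes) and count as 2 samples. Intervals of fold changes are the estimate ± the normal 95% limit times the authors' standard error. Replicate ratios used a pseudocount of 1. GENCODE M21 (GRCm38) gave gene positions and exon lengths, and 97.3% of the gene IDs matched it exactly. Members, roles, pairs, pathway and marker lists were chosen with earlier results of these data known. Named with values were all members with a knockout mean of 50 or more or an unadjusted p under 0.05, the 3 highest and 3 lowest fold changes at a mean of 50 or more, members fixed by name, and the 4 pathway genes with the smallest p in each direction. The re-adjustment of p-values was tested on simulated data. Tools were Python 3.11.15, pandas 2.3.3, scipy 1.17.1, R 4.3.3 and edgeR 4.0.16 (TMM scaling of the knockout counts, as an alternative).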

Additional observations from a re-analysis of the deposited data

How the results depend on the processing

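The counts of members passing in the authors' comparison stayed at 0 higher and 0 lower at an adjusted p under 0.1, with Benjamini-Hochberg adjustment over all genes, over genes with a mean of 50 or more, and without near-absent genes. At an unadjusted p under 0.05 they were 2 higher (Tnfrsf9 and Traf1) and 0 lower. For the list of NF-κB, TRAF partner and death signalling genes the same settings gave 0 and 0, and an unadjusted p under 0.05 gave 1 higher and 1 lower. The number of members with a knockout mean of 50 or more, 36, ranged from 35 to 36 when either replicate was left out, was 36 under CPM and under edgeR TMM scaling, and was 48, 42 and 29 with no minimum, a minimum of 10 and a minimum of 200. With 2 libraries, leaving 1 out moves a mean by a fixed share of the SD, so the moves are given as folds: at most 1.224-fold in the 36 members, and over 1.5-fold in 5 of 48. Those 5 were Tnfrsf11a (10.5, or 5.80 and 15.2), Tnfrsf11b (14.2, or 19.3 and 9.11), and Tnfsfm13, Tnfsf18 and Tnfsf13, which had 1 count in all. Under CPM and TMM scaling all 48 levels moved by less than 1 SD. The median log2 ratio of replicate 2 to replicate 1 over the 36 members was -0.041, -0.012 under CPM and -0.037 under TMM. No paired analysis was possible because the labels give 1 group only, and the comparison with wild type could not be repeated without a library because no wild-type library is among the samples analysed here. Counts were lowest in the 12 members with a mean under 50, 6 of which had a mean under 10.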

Other observations

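The naming rule leaves out some superfamily genes with other symbols. Of these, Relt, an orphan receptor, had normalized counts of 394 and 332 in the knockout libraries, with a log2 fold change of 0.20 (SE 0.40) in the authors' deposited table. Ngfr, encoding the p75 neurotrophin receptor, had 3 and 1 counts. The most abundant genes of the downstream list included Tnfaip3, encoding the NF-κB inhibitor A20, with normalized counts of 6386 and 6270. All 3 were picked with their values in view.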
